A study of Mus musculus with 92 samples.

Results

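The 10 genes of the neuromuscular junction described here, of 13441 genes measured, were followed across quadriceps RNA from 92 mice. They were chosen by name, as the rows listed under these symbols, and all 10 were found: the acetylcholine receptor subunit genes Chrna1, Chrnb1, Chrnd and Chrne, the acetylcholinesterase gene Ache and the gene of its collagen-like tail Colq, and the receptor-clustering genes Musk, Lrp4, Dok7 and Rapsn. The animals were DOz mice, an outbred stock in which every mouse inherits a different mixture of alleles. All were fed standard rodent chow for life and were about 18 to 20 weeks old, so the data hold 1 group and no treatment contrast. Each sample is taken here as a separate animal, as its own title number implies, and is named by that number where it stands apart.

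At the neuromuscular junction a motor axon releases acetylcholine onto a small patch of the muscle fibre. The nerve secretes agrin, which binds LRP4; LRP4 activates the kinase MuSK, which needs the adaptor DOK7, and the scaffold protein rapsyn then holds the receptors in a dense cluster. Acetylcholinesterase, anchored in the synaptic basal lamina by ColQ and MuSK, ends each signal. In adult fibres the receptor is built from alpha, beta, delta and epsilon subunits, and their genes are transcribed mainly by the few nuclei that lie under the nerve ending. ETS factors acting through a promoter element called the N-box drive that local transcription, while electrical activity and the myogenic factors, which bind E-boxes, set the level in the remaining nuclei. When a fibre loses its nerve, that activity-dependent route raises receptor genes along its whole length.

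Promoter windows from RefSeq on the GRCm38.p6 build were available for 6 of the 10 genes, and 4 are printed: the 3 receptor subunit genes with a window, whose relations to each other differ in the results that follow, and Musk, the kinase gene, which passed with none of them. Each run is the 250 bases just before the transcription start, read 5′ to 3′ on the strand of the gene. Capitals mark every match to the E-box CANNTG or the N-box CCGGAA on either strand. The windows lie at chr2:73580339-73580588 on the minus strand for Chrna1, chr11:69795938-69796187 on the minus strand for Chrnb1, chr11:70619195-70619444 on the minus strand for Chrne and chr4:58285712-58285961 on the plus strand for Musk.
Chrna1: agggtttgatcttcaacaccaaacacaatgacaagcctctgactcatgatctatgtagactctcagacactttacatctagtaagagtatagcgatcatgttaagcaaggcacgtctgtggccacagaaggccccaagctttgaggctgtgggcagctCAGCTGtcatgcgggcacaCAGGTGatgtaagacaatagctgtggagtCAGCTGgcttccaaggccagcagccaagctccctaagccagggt
Chrnb1: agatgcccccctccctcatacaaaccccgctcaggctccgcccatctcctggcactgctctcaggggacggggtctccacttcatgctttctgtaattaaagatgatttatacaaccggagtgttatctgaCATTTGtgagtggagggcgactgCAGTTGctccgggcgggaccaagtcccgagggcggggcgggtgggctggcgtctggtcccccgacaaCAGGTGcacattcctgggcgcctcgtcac
Chrne: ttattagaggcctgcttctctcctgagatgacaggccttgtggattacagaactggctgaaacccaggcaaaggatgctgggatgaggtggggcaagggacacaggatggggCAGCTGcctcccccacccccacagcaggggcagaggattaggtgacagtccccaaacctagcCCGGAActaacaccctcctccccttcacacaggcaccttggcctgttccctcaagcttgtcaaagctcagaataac
Musk: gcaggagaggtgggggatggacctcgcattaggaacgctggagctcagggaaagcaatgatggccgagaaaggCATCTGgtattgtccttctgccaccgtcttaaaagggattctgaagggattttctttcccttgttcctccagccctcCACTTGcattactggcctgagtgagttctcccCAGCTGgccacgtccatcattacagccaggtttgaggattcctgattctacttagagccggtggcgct

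The Chrna1 window held 3 E-boxes, at positions -92, -73 and -44, where -1 is the base just before the start. Chrnb1 also held 3, at -119, -96 and -29, and Musk held 3, at -177, -100 and -68. Chrne held 1 E-box at -138 and, alone among the windows of these 6 genes, an N-box, at -76. The Ache window held 1 E-box at -199, and of the 2 Dok7 windows, at separate starts, the first held 1 at -149 and the second 0. For the Ache window and the second Dok7 window, unlike the others, the bases after the start were not found in the transcript, so these starts are less sure. Among 32851 promoter windows of the same length, 66.2% held an E-box, 12.2% held 3 or more, and 12% held an N-box. These matches are letters in a window and not measured binding sites. No window was used here for Chrnd, Colq, Lrp4 or Rapsn.

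The deposited values are on a log2 scale and sum to between 898071 and 1140761 per sample when made linear, so they are on a per-million scale, and the depth of each library is not known from them. Sample medians lay between 3.43 and 3.55, and the median gene had an SD of 0.318 over the animals. The tissue label matched its markers: all 9 fast glycolytic fibre genes had means between 11.78 (Pfkm) and 15.9 (Myh4). Whole muscle was measured, so for every gene below a smaller number of junctions or of expressing nuclei and less RNA from each cannot be told apart.

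All 4 receptor subunit genes were detected in every animal, and they differed between animals by 3.47-fold to 16.4-fold. Chrna1, on chromosome 2, encodes the alpha subunit that carries most of the acetylcholine binding site. Its log2 per-million level was 1.95 in the lowest animal, 3.44 in the median animal and 5.98 in the highest, with a mean of 3.48 ± 0.62 (SD, n = 92). The top of its range was thin: animal 260 stood at 5.98, animal 43 at 5.54, animal 55 at 5.0 and animal 56 at 4.96, while the upper quartile began at 3.64. Chrnd, the delta subunit gene on chromosome 1, was the weakest of the 10, with a log2 level of 0.49 at the lowest, 1.36 at the median and 3.52 at the highest (mean 1.44 ± 0.51, SD, n = 92). Animal 260 was again the highest, followed by the animal with the highest Chrnb1 at 3.07 and animal 43 at 2.81. Both genes were skewed towards high values, with a skewness of 1.29 for Chrna1 and 1.19 for Chrnd.

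Chrnb1 and Chrne, both on chromosome 11, had more even distributions. Chrnb1, the beta subunit gene, ran from 3.97 through a median of 4.78 to 5.76 (mean 4.81 ± 0.38, SD, n = 92), the narrowest range among the subunits. Chrne encodes the epsilon subunit, which replaces the fetal gamma subunit in mature junctions. Its level was 2.30 at the lowest, 3.42 at the median and 5.27 at the highest (mean 3.47 ± 0.50, SD, n = 92). The highest Chrne values came from animal 56 at 5.27 and animal 55 at 5.07, neither of which held the highest Chrna1 value. Chrng, the gamma subunit gene, was not analysed here.

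Ache, on chromosome 5, had log2 levels of 3.20 at the lowest, 4.58 at the median and 6.08 at the highest (mean 4.61 ± 0.46, SD, n = 92), a 7.32-fold range. Colq, on chromosome 14, ranged from 2.31 through 3.08 to 4.46 (mean 3.08 ± 0.36, SD, n = 92). Animal 56 was the highest for both, and animal 60, which had the lowest Ache value of 3.20, had the lowest Chrna1 and Chrne values as well and ranked 91 of 92 for Colq. Within an animal, the Ache level exceeded the Colq level per kilobase of exon by 1.25 ± 0.37 (log2 difference, SD, n = 92), in 91 of 92 animals.

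The clustering genes were less variable, apart from Musk. Musk, on chromosome 4, ran from 2.51 through 3.64 to 4.94 on the log2 per-million scale (mean 3.67 ± 0.58, SD, n = 92), a spread like that of Chrna1 but with little skew (0.25). Lrp4, the agrin receptor gene on chromosome 2, ran from 3.38 through 4.04 to 5.09 (mean 4.05 ± 0.33, SD, n = 92). Dok7, on chromosome 5, ran from 2.57 through 3.28 to 4.12 (mean 3.25 ± 0.31, SD, n = 92). Rapsn, the rapsyn gene on chromosome 2, was the steadiest of the 10: 3.39 at the lowest, 3.87 at the median and 4.32 at the highest (mean 3.85 ± 0.19, SD, n = 92), a range of 1.90-fold.

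**Figure D1:**
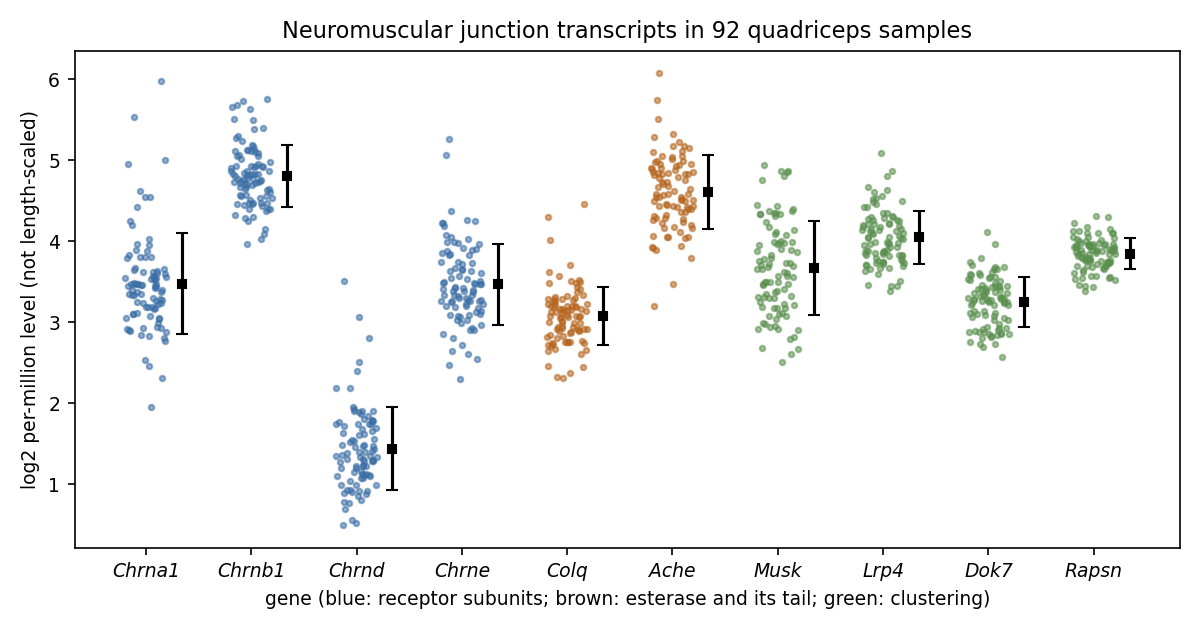
Log2 per-million level (vertical axis, not scaled by length) of the 10 junction genes (horizontal axis), 1 point per animal, with the mean and SD over 92 animals as a black square and bars beside each column of points. Chrna1 and Chrnd have a few animals far above the rest, the highest at 5.98 and 3.52, while Rapsn stays between 3.39 and 4.32.

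Set against the trend of SD on mean over all genes, 9 of the 10 genes had more spread than the trend gives at their level. The excess, a log2 ratio of SDs, was 1.11 for Chrna1, 1.07 for Musk, 0.97 for Ache, 0.82 for Chrne and 0.73 for Chrnb1, placing Chrna1 at percentile 94.9 and Musk at percentile 94.5 of all genes. Lrp4 (0.39), Colq (0.21), Chrnd (0.11) and Dok7 (0.04) lay closer to the trend. Rapsn lay below it at -0.45, percentile 16.2. With the median absolute deviation in place of the SD, which gives outlying animals less weight, the excess of Chrna1 was 0.48 and that of Musk 1.24, and Colq moved just below the trend (-0.03).

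Levels can be ordered between genes only per length, so each mean was reduced by the log2 of the merged exon length in kilobases. Chrnb1 was highest at 3.48, followed by Rapsn at 3.0, Chrne at 2.72, Ache at 2.40, Musk at 1.75, Chrna1 at 1.35, Dok7 at 1.16, Colq at 1.15, Lrp4 at 0.66 and Chrnd at -0.28, all as log2 levels per kilobase. Of the 9 neighbouring pairs in this order, 8 differed in a sign-flip permutation test within animals (two-sided), with adjusted p between 1.5e-05 and 0.00795. Dok7 and Colq showed no mean difference within animals by this test (0.00 ± 0.50, SD, n = 92, permutation p = 0.94). The transcripts of the receptor subunits were therefore far from equal on this scale: within an animal, Chrnb1 exceeded Chrna1 in 92 of 92 animals, by 2.13 ± 0.57 (log2 difference per kilobase, SD), and Chrna1 exceeded Chrnd in 92 of 92, by 1.63 ± 0.46. Scaled by the longest transcript instead, 7 of the 9 neighbouring pairs differed and Dok7 and Colq moved above Chrna1, so the order in the middle of the list rests on the length chosen.

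Across the animals, Chrna1, Chrnd, Chrne, Colq and Ache varied together, and Chrnb1 varied with Chrna1 and Chrnd. Each gene was used in turn as a standardised predictor of all other genes in limma, and a pair was called where both directions passed an adjusted p of 0.05; a slope is the log2 change of the response per SD of the predictor. Of the 45 pairs among the 10 genes, 12 were called, all 12 of them among the 15 pairs that Chrna1, Chrnb1, Chrnd, Chrne, Colq and Ache form. The share of all genes that passed with each predictor was 4.89% for Chrna1, 3.01% for Chrnb1, 7.29% for Chrnd, 8.82% for Chrne, 0.305% for Colq and 0.484% for Ache. All 12 slopes were positive, and r lay between 0.432 and 0.717.

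The closest pair was Chrne and Ache. Their r was 0.717 (95% interval from Fisher's transformation 0.601 to 0.804) and rho was 0.668 over 92 animals, each with a permutation p of 1e-05, the smallest that 100000 resamples can give. Ache rose by 0.33 ± 0.03 (slope ± SE) per SD of Chrne, with a limma adjusted p of 4.29e-12. Leaving out the 2 animals farthest from the Chrne median gave an r of 0.71, and r ran from 0.53 to 0.806 within the 5 runs of title numbers described further on. The relation was thus as strong without its most extreme animals and present within each run.

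Colq, whose protein tethers the esterase, rose with Chrne (r = 0.646, rho = 0.687, limma adjusted p = 2.29e-08), with Chrnd (r = 0.643, rho = 0.558, limma adjusted p = 2.95e-08) and with Ache itself (r = 0.612, rho = 0.593, limma adjusted p = 3.44e-07). Chrna1 and Chrnd were the closest subunit pair by r, at 0.687, but rho was 0.51 and r fell to 0.564 without the 2 animals farthest from the Chrna1 median; the limma adjusted p was 5.14e-10. Chrnd and Chrne gave r = 0.555, and Chrna1 and Chrne gave r = 0.52. Chrna1 also rose with Colq (r = 0.557) and Ache (r = 0.488), and Chrnd with Ache (r = 0.447).

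Chrnb1 stood partly outside this group. It rose with Chrnd (r = 0.498, rho = 0.423, limma adjusted p = 0.000518) and with Chrna1 (r = 0.432, rho = 0.284, limma adjusted p = 0.00406). The pairs of Chrnb1 with Chrne (r = 0.161), Ache (r = 0.185) and Colq (r = 0.245) were not called by limma. Their 95% intervals were -0.045 to 0.354, -0.0206 to 0.376 and 0.0427 to 0.429. Unadjusted, Colq passed by r (permutation p = 0.0182) and Ache by rho (0.233, permutation p = 0.0253). Whether these r values differ from those of the called pairs was not tested. The pair of Chrna1 and Chrnb1 was the least stable: within the title-number runs r ranged from -0.488 to 0.608, and the call was lost with ranks (limma adjusted p = 0.121) and with the first 3 principal components as covariates (limma adjusted p = 0.317).

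None of the 30 pairs that include Musk, Lrp4, Dok7 or Rapsn was called by limma, and r lay between -0.185 (Chrnd and Musk) and 0.189 (Ache and Lrp4). At an unadjusted permutation p under 0.05, 0 of these 30 passed by r and 3 by rho. With these genes as predictors, 8.96% of all genes passed for Musk, 2.18% for Lrp4, 0.0521% for Dok7 and 8.33% for Rapsn, so Musk and Rapsn varied with many transcripts outside this set. With 3 principal components as covariates, the number of genes that passed fell from 1204 to 393 for Musk and from 1119 to 0 for Rapsn. Among the 6 pairs that the 4 clustering genes form, r ran from -0.0325 to 0.177. For Lrp4 and Musk, receptor and kinase of 1 complex, r was 0.177 with a 95% interval of -0.0288 to 0.368, and for Rapsn with Chrna1 it was 0.0227 with an interval of -0.183 to 0.226. With the 8 marker scores described further on as covariates, Chrne and Lrp4 passed (limma adjusted p = 0.0256).

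**Figure D2:**
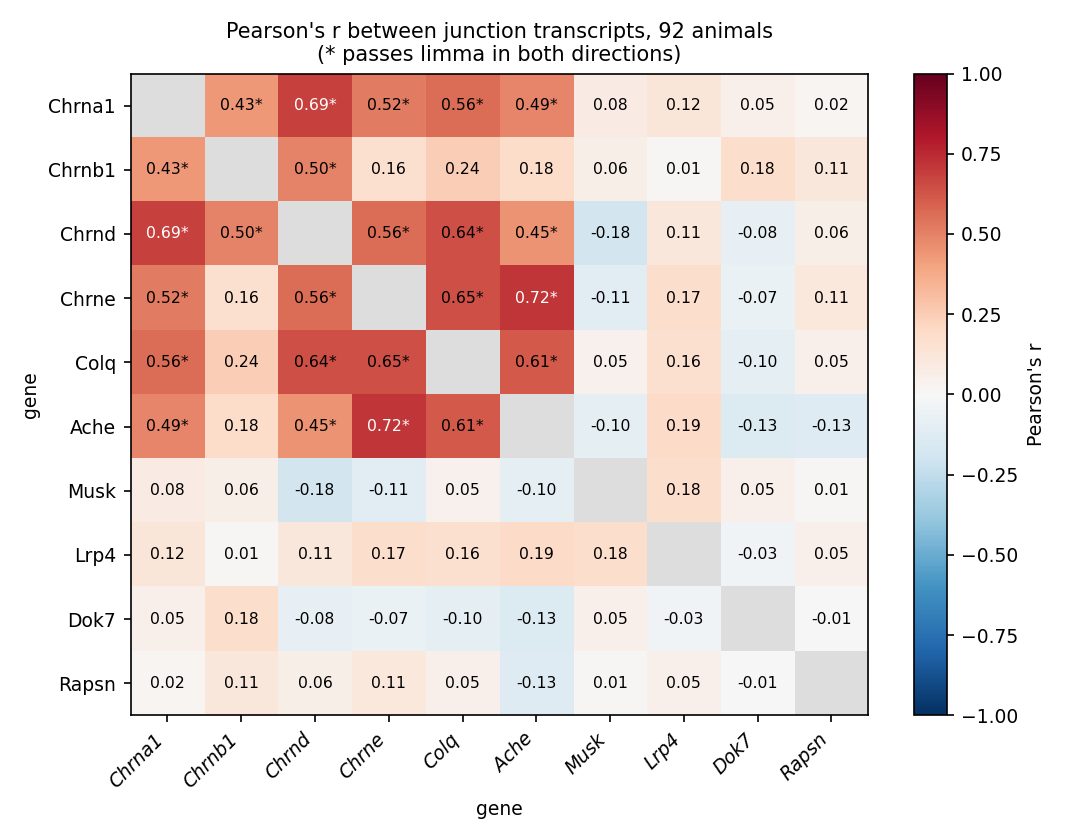
Pearson's r for each pair of the 10 genes over 92 animals (both axes list the genes; colour runs from -1 to 1; an asterisk marks the 12 pairs that passed limma in both directions). The 12 marked pairs lie in the block formed by the receptor subunits, Colq and Ache, and the rows of Musk, Lrp4, Dok7 and Rapsn hold values between -0.185 and 0.189.

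The pairs of Chrna1 rested in part on a few animals. Animal 260 held the highest Chrna1 and Chrnd values and ranked 2 for Chrnb1, 8 for Chrne, 9 for Colq and 9 for Ache, yet it ranked 68 for Musk, 51 for Rapsn and 44 for Dok7. Animal 56 ranked 1 for Chrne, Colq and Ache and 4 for Chrna1, but 40 for Chrnb1 and 76 for Musk. At the other end, animal 60 ranked 92 for Chrna1, Chrne and Ache, 90 for Chrnd and 91 for Colq, but 15 for Musk and 10 for Rapsn. Without animals 260 and 56, 10 of the 12 pairs remained. Without the 5 animals with the highest Chrna1 (260, 43, 55, 56 and the animal with the highest Chrnb1), 7 remained: the pairs of Chrna1 with Chrnb1, Chrnd, Chrne and Colq and the pair of Chrnb1 with Chrnd were lost, with limma adjusted p of 0.681, 0.0946, 0.262, 0.0624 and 0.0885. Over all genes, the number that passed with Chrna1 as predictor fell from 657 to 35 without animals 260 and 56 and to 2 without the 5.

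**Figure D3:**
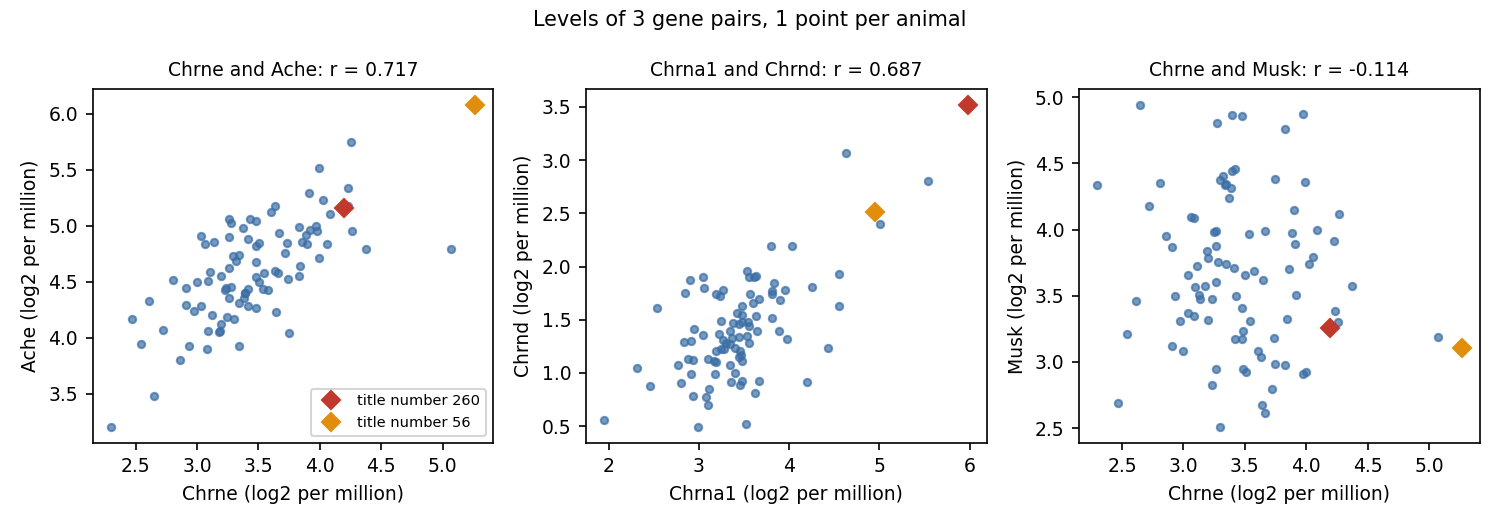
Log2 per-million levels of 3 pairs of genes, Chrne with Ache, Chrna1 with Chrnd, and Chrne with Musk, 1 point per animal, with animals 260 and 56 as diamonds. Ache follows Chrne over its whole range (r = 0.717), the Chrna1 and Chrnd relation (r = 0.687) extends to animal 260 at the upper right, and Musk shows no such relation to Chrne (r = -0.114).

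For each gene, the 3 genes of the whole table with the largest r, among those with a mean of at least 1, were listed. For Chrne they were Ache (0.717), Ufsp1 (0.699), which encodes a protease of the UFM1 system, and Colq (0.646). For Ache they were Ufsp1 (0.789), Chrne (0.717) and Colq (0.612), and for Colq they were Chrne, Chrnd and Ache. So the closest matches of these 3 genes in the whole transcriptome were mostly other genes of the junction. For Chrnd they were Ncam1 (0.702), the neural cell adhesion molecule gene, Chrna1 (0.687) and Colq (0.643). For Chrna1 they were Chrnd (0.687), Prkar1a (0.621), which encodes a regulatory subunit of protein kinase A, and Ncam1 (0.619).

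The remaining 5 genes had other matches. For Chrnb1 these were Acot9 (0.601), Fgf11 (0.549) and Arl6ip5 (0.527). Musk lay closest to Ttll7 (0.621), a tubulin polyglutamylase gene, Lrrc58 (0.613) and Cd164 (0.610). Rapsn lay closest to Cacng1 (0.592), a subunit gene of the muscle calcium channel, and ran opposite to Lpgat1 (-0.532) and Calu (-0.529). For Lrp4 the genes were Grip2 (0.545), Cnst (0.538) and Tnfaip3 (0.502), and for Dok7 Slc38a3 (0.533), a glutamine transporter gene, Tnfrsf12a (0.486) and Mad2l1bp (0.452). None of the 10 junction genes was among the 3 closest of any of these 5.

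The other genes of the junction were taken from 5 lists with 57 measured genes. In all, 67 pairs of a listed gene and one of the 10 genes passed limma. Rising and falling genes numbered 7 and 2 of 57 for Chrna1, 3 and 0 for Chrnb1, 8 and 6 for Chrnd, 8 and 5 for Chrne, 4 and 0 for Colq and for Ache, 8 and 1 for Musk, 5 and 5 for Rapsn, 1 and 0 for Lrp4 and 0 and 0 for Dok7, for which 4 of 57 had an unadjusted p under 0.05. As a share of the list, beside the share of all genes that passed with the same predictor, that is 24.6% beside 7.29% for Chrnd, 22.8% beside 8.82% for Chrne, 15.8% beside 4.89% for Chrna1, 7.02% beside 0.305% for Colq and 7.02% beside 0.484% for Ache. It is 17.5% beside 8.33% for Rapsn, with which 0 genes of the whole table passed once 3 principal components were covariates. For Musk (15.8% beside 8.96%), Chrnb1 (5.26% beside 3.01%), Lrp4 (1.75% beside 2.18%) and Dok7 (0.0% beside 0.0521%) the list lies nearer the share of all genes, and the count is no result about it. With the first 3 principal components as covariates 26 pairs passed, 22 of them the same pairs. The 4 genes that rose with Colq and the 4 that rose with Ache were the same: Etv5, Etv4, Ufsp1 and Prkar1a. The lists were chosen with earlier results of these data known, so a share above that of all genes is no test of them.

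Of the list of genes for synaptic transcription, 8 were measured. Etv5 and Etv4, ETS factor genes of the group that acts at junctional nuclei, rose with the same 5 genes: Chrna1, Chrnd, Chrne, Colq and Ache. Etv5 was at 2.50 in the lowest animal, 3.55 in the median and 4.37 in the highest on the log2 per-million scale. It rose by 0.20 ± 0.03 per SD of Ache (r = 0.572, limma adjusted p = 7.07e-06) and by 0.18 ± 0.03 per SD of Chrne (r = 0.529, limma adjusted p = 3.1e-05). Etv4, a weaker transcript (-0.51, 1.19 and 2.52), rose by 0.27 ± 0.05 per SD of Chrne (r = 0.497, limma adjusted p = 0.000159). Without the 5 animals with the highest Chrna1, Etv5 passed with 3 of the 10 genes and Etv4 with 2. The Etv5 slopes whose calls were lost stayed at 0.14 on Chrna1 (limma adjusted p = 0.0946) and at 0.12 on Chrnd (limma adjusted p = 0.0565). Those of Etv4 went from 0.26 to 0.17 on Chrna1, from 0.26 to 0.18 on Chrnd and from 0.25 to 0.20 on Ache.

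Myog, the gene of the myogenic factor myogenin, rose with Chrnb1 (0.39 ± 0.07 per SD, r = 0.51, limma adjusted p = 0.0003), Chrna1 (0.33 ± 0.07, r = 0.429, limma adjusted p = 0.00232) and Chrnd (0.28 ± 0.07, r = 0.359, limma adjusted p = 0.0127), and passed with none of the other genes. Its rho values were lower, at 0.406, 0.231 and 0.197, and animal 260 held its highest level, 5.11 against a median of 1.76. Myog passed with 1 of the 10 genes without animals 260 and 56 and with 0 when 3 principal components were covariates. Gabpa and Gabpb1, whose products together bind the N-box, and Hdac4, a deacetylase gene of the activity-dependent route, passed limma with none of the 10, and at an unadjusted p under 0.05 with 2, 1 and 0 of them.

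Among other junction genes, Ufsp1 and Prkar1a rose with the same 5 genes as Etv5. Ufsp1 had log2 levels of 2.17 at the lowest, 3.14 at the median and 4.77 at the highest, and rose by 0.32 ± 0.03 per SD of Ache (r = 0.789, rho = 0.74, limma adjusted p = 1.04e-16), the largest r that any gene with a mean of at least 1 had with any of the 10. Prkar1a ran from 6.52 through 7.12 to 7.77 and rose by 0.12 ± 0.02 per SD of Chrna1 (r = 0.621, rho = 0.537, limma adjusted p = 1.55e-07). Prkar1a passed with 4 or 5 genes and Ufsp1 with 4 to 6 under every alternative run. Prima1, the gene of the membrane anchor that holds esterase mainly outside the junction, fell by 0.21 per SD of Chrnd (limma adjusted p = 0.0304) and by 0.20 per SD of Chrne (limma adjusted p = 0.0361). Of the remaining genes of this list, Bche, Gfpt1, Dpagt1 and Alg14 each passed with 1 of the 10.

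In the kinase list, with 16 measured genes, Ptpn11 and Abl2 fell with receptor subunits and rose with Musk. Ptpn11, which encodes the phosphatase SHP2, fell by 0.12 per SD of Chrne (limma adjusted p = 0.000873), by 0.11 per SD of Chrnd (limma adjusted p = 0.00203) and by 0.11 per SD of Chrna1 (limma adjusted p = 0.00405), and rose by 0.10 ± 0.02 per SD of Musk (limma adjusted p = 0.00458). Abl2, a kinase gene, fell with Chrne (-0.10 ± 0.02, limma adjusted p = 0.00346) and Chrnd (-0.09 ± 0.02, limma adjusted p = 0.0112) and rose with Musk (0.08 ± 0.02, limma adjusted p = 0.0215). Crk, an adaptor that DOK7 recruits, fell with Chrna1, Chrnd and Chrne, most with Chrne (-0.07 ± 0.01, r = -0.484, limma adjusted p = 0.000361). Src rose with Chrna1 and Chrne, and Erbb2, a neuregulin receptor gene, with Chrnb1 and Chrnd. The difference between the slopes on the subunits and on Musk was not tested. With 3 principal components as covariates, Ptpn11 and Crk each passed with 1 of the 10 genes and Abl2 with 0.

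Of the 11 measured genes for synaptic matrix and ligands, 0 passed limma with a receptor subunit, Colq, Ache, Dok7 or Lrp4, and 7 of these 88 relations had an unadjusted p under 0.05. With 2 of 11 passing each for Musk and Rapsn, beside 8.96% and 8.33% of all genes, and at most 8.82% of all genes passing with any of the other 8, these counts are no result about the list. Agrn, the agrin gene, passed with none of the 10 (1 at an unadjusted p under 0.05). Nid2 fell (-0.21 ± 0.05, limma adjusted p = 0.00101) and Lama2 rose (0.09 ± 0.03, limma adjusted p = 0.0423) with Musk, and Nid1 (-0.17 ± 0.04, limma adjusted p = 0.00538) and Lamb1 (-0.12 ± 0.04, limma adjusted p = 0.0243) fell with Rapsn.

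In the list for the dystroglycan complex and the folds, with 12 measured genes, Dmd, the dystrophin gene, rose with Musk (0.09 ± 0.03, limma adjusted p = 0.023) and fell with Chrne (-0.08 ± 0.03, limma adjusted p = 0.0456) and Rapsn (-0.08 ± 0.03, limma adjusted p = 0.0452). Itga7, an integrin gene, rose with Chrnb1 (limma adjusted p = 0.00793), Chrnd (0.0253) and Rapsn (0.00809). Dag1, the dystroglycan gene, rose with Musk (limma adjusted p = 0.0262) and Lrp4 (limma adjusted p = 0.0264). Nes, the nestin gene, rose with Chrna1, Chrnd and Chrne, but its rho values were 0.204, 0.197 and 0.178 and it passed with 0 of the 10 genes without animals 260 and 56. Utrn, the utrophin gene, fell with Rapsn only among the 10 (-0.10 ± 0.02, limma adjusted p = 0.00724).

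**Figure D4:**
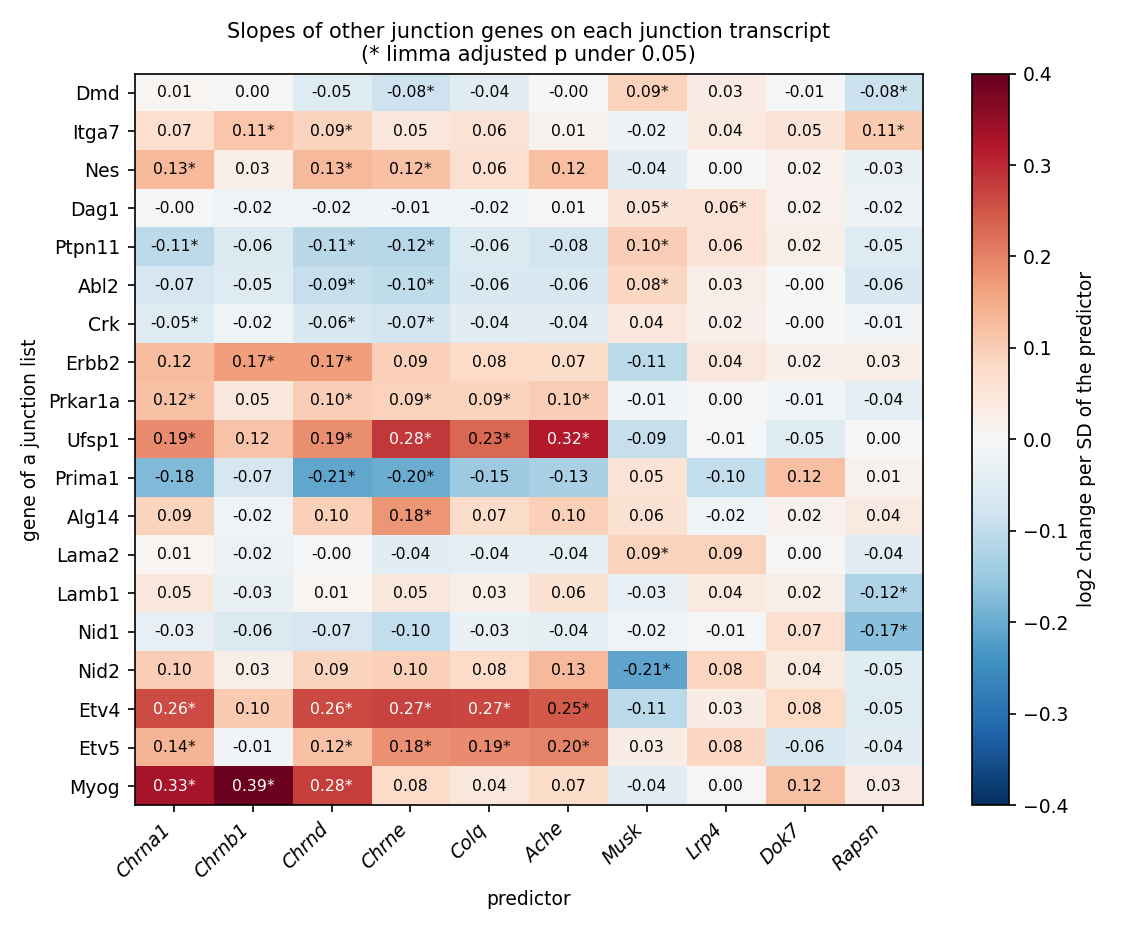
Slopes (log2 change per SD of the predictor, colour from -0.4 to 0.4) of up to 4 genes from each junction list (vertical axis) on each of the 10 genes (horizontal axis); an asterisk marks a limma adjusted p under 0.05. Ufsp1, Prkar1a, Etv5 and Etv4 are marked for Chrna1, Chrnd, Chrne, Colq and Ache, and the rows of Ptpn11 and Abl2 have opposite signs for Chrne and for Musk.

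In an outbred stock neighbouring genes are inherited together, so the 5 measured genes on each side of each junction gene were examined. Of these 100 neighbours, 9 passed, against a mean of 4.43% of all genes over the 10 predictors: 3 for Chrne, 2 for Musk, 1 each for Ache, Chrna1, Chrnb1 and Chrnd, and by limma 0 for Colq, Dok7, Lrp4 and Rapsn, whose 40 neighbours included 7 with an unadjusted p under 0.05. With 10 neighbours each, the single calls for Chrna1, Chrnb1 and Chrnd and the 2 for Musk are, as counts, no result about these neighbours, since 4.89%, 3.01%, 7.29% and 8.96% of all genes passed with the same predictors. Coordinates are those of the GENCODE M21 annotation on GRCm38. Ufsp1 is the gene next to Ache (chromosome 5, 137287519 to 137294466), with 0.16 kb between their nearest ends, and no exon base of the 2 genes is shared. Fgf11 lies next to Chrnb1 (chromosome 11, 69784036 to 69795943), with 0.12 kb between their nearest ends, and rose by 0.29 ± 0.05 per SD of it (r = 0.549, limma adjusted p = 6.29e-05). The gene 4930544D05Rik overlaps the span of Chrne (chromosome 11, 70614883 to 70619216) on the opposite strand, with 0 shared exon bases. Its mean log2 level was only -0.07, below the minimum of 1 used for the closest matches. It rose by 0.36 ± 0.05 per SD of Chrne (r = 0.622, limma adjusted p = 1.13e-07). Whether the counting used the strand is not given in the sources used here, and without it reads from the span that Chrne and 4930544D05Rik share cannot be told apart.

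These 3 adjacent or overlapping genes also passed with 3 principal components as covariates, and the other 6 did not, while Pacsin3, 192.83 kb from Lrp4, passed only there (limma adjusted p = 0.0142). Zbtb4, 0.01 kb from Chrnb1 and so nearer to it than Fgf11, did not pass (r = -0.0831). Neither did Mink1, 0.4 kb from Chrne (r = -0.0879), or Srrt, 1.24 kb from Ache (r = 0.179). Of the 6 that passed without the covariates only, Pfn1 (32.63 kb from the nearest end, limma adjusted p = 0.0282) and Cxcl16 (154.9 kb, limma adjusted p = 0.0194) rose with Chrne, Efhd1 (64.29 kb, limma adjusted p = 0.0455) fell with Chrnd, and Hoxd9 (1117.39 kb, limma adjusted p = 0.00121) fell with Chrna1. Pakap, listed under 2 identifiers, rose with Musk under both (limma adjusted p = 0.0213 and 0.00734). Of the 10 genes, 3 share exon bases with another annotated gene that was not in the table: Colq shares 5.23% of its exon bases with Gm49387, Ache 2.12% with Gm42456 and Rapsn 0.22% with Gm13778.

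Scores of 8 marker lists, each the mean of its standardised genes, were then used as predictors of all genes, which gave 80 relations with the 10 genes. The share of all genes that passed was 0.662% for the slow fibre score, 23.7% for the fast glycolytic fibre score, 4.66% for the Schwann cell score, 20.8% for the fibroblast score, 21.7% for the macrophage score, 8.18% for the endothelial score, 3.99% for the adipocyte score and 8.7% for the denervation response score. The junction genes that passed numbered 3, 3, 2, 1 and 1 of 10 for the fast fibre, denervation, endothelial, fibroblast and adipocyte scores. None passed by limma for the slow fibre, Schwann cell and macrophage scores, where 5 of 30 relations had an unadjusted p under 0.05. The Schwann cell list had 9 of 10 genes measured, with a summed per-million level of 29.7 to 161, and Mag was not analysed here.

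The denervation response list had 9 of 11 genes measured, with a summed per-million level of 119 to 1070 over the animals, and no measured gene of it at 0. Chrna1 rose by 0.30 ± 0.06 per SD of this score (r = 0.487, limma adjusted p = 0.000144), Chrnd by 0.22 ± 0.05 (r = 0.425, limma adjusted p = 0.00173) and Chrnb1 by 0.15 ± 0.04 (r = 0.391, limma adjusted p = 0.00446). The rho values were 0.201, 0.172 and 0.246, and none of the 3 passed with 3 principal components as covariates or when the 2 animals with the most extreme scores were left out. Chrnd did not pass with ranks, and without animals 260 and 56 only Chrna1 passed. Animal 260 had the highest value of this score and of the macrophage score, and within the list it held the highest level of Myog, Ncam1 (5.71 against a median of 2.87), Runx1 (4.52 against 2.09), Myh3 (8.35 against 4.15), the embryonic myosin gene, and Cdkn1a (6.19 against 4.05). The other 4 measured genes of the list did not stand out in it: Myh8 ranked 23, Myod1 29, Gadd45a 34 and Hdac4 67. Without the 5 animals with the highest Chrna1, 0 of the 10 passed.

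Ncam1 went beyond the score that holds it. It rose with Chrna1, Chrnb1, Chrnd, Chrne, Colq and Ache. The slope was largest on Chrnd (0.36 ± 0.04 per SD, r = 0.702, rho = 0.593, limma adjusted p = 3.94e-11), and r was 0.484 with Chrne, 0.452 with Colq and 0.419 with Ache. Ncam1 passed with 4 to 6 genes under every alternative run.

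For the other scores the counts, with only 10 genes each, are no result about the junction genes: 3 of 10 beside 23.7% of all genes for the fast fibre score, 2 beside 8.18% for the endothelial score, 1 beside 20.8% for the fibroblast score and 1 beside 3.99% for the adipocyte score. The single relations follow as values. Chrne rose (0.14 ± 0.05, limma adjusted p = 0.0333) and Rapsn rose (0.07 ± 0.02, limma adjusted p = 0.00465) with the fast fibre score, and Lrp4 fell with it (-0.10 ± 0.03, limma adjusted p = 0.0235), but 0 of the 10 passed with 3 principal components as covariates, and Lrp4 did not pass without animals 260 and 56. Chrna1 (-0.20 ± 0.06, limma adjusted p = 0.0197) and Chrne (-0.17 ± 0.05, limma adjusted p = 0.0214) fell with the endothelial score, but their rho values were -0.143 and -0.131 and neither passed without animals 260 and 56. Rapsn fell with the fibroblast score (-0.06 ± 0.02, limma adjusted p = 0.0103) and with the adipocyte score (-0.06 ± 0.02, limma adjusted p = 0.0472), the latter not without animals 260 and 56 and neither with 3 principal components as covariates, where Chrnd passed for the fibroblast score. Summed per-million levels ranged over the animals from 476 to 2370 for the fibroblast list, 335 to 2920 for the adipocyte list and up to 417 for the endothelial list. With all 8 scores as covariates, 11 of the 12 pairs of junction genes remained, and the pair lost was Chrna1 and Chrnb1 (limma adjusted p = 0.168).

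**Figure D5:**
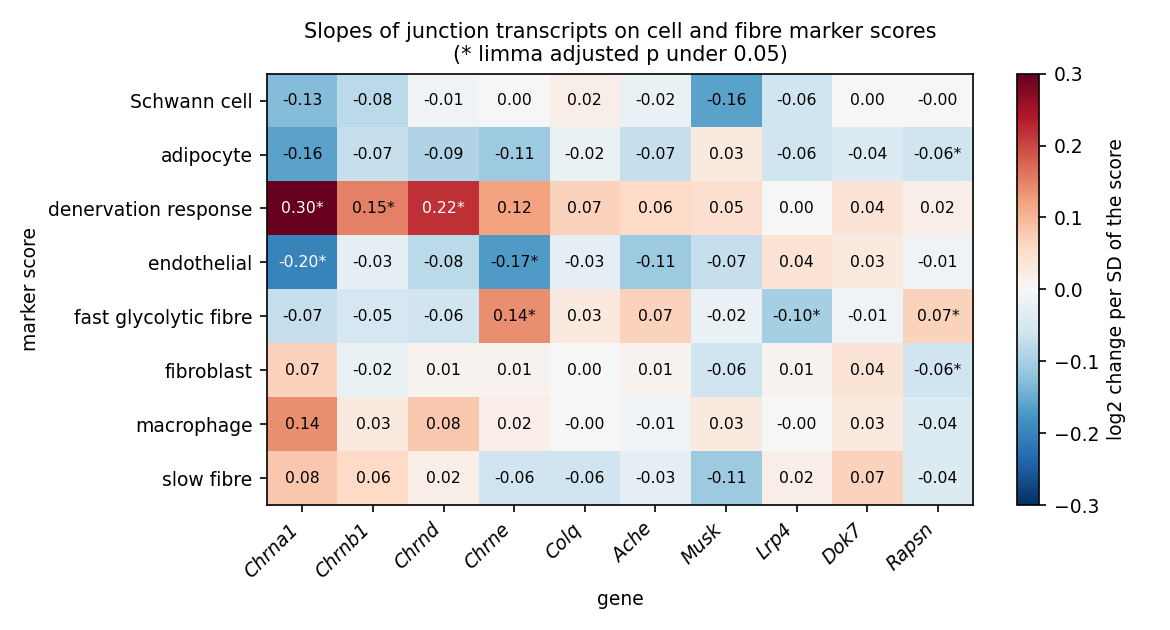
Slope of each of the 10 genes (horizontal axis) on each of 8 marker scores (vertical axis), as log2 change per SD of the score, with an asterisk where the limma adjusted p was under 0.05. The largest slopes are those of Chrna1 (0.30) and Chrnd (0.22) on the denervation response score and of Chrna1 (-0.20) and Chrne (-0.17) on the endothelial score.

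Since animals 260 and 56 each led a different set of subunits, the slopes of all genes on Chrna1 and on Chrne were compared in 1 model holding both, a test added after the values were seen. The slopes differed for 0.729% of all genes. Among 136 listed genes 2 passed (1.47%), both from the fast fibre list, of which the other 7 of 9 did not pass: Pvalb, the parvalbumin gene, with slopes of -0.06 on Chrna1 and 0.15 on Chrne (difference -0.21 ± 0.04, limma adjusted p = 0.00472), and Atp2a1 with slopes of -0.05 and 0.10 (difference -0.15 ± 0.04, limma adjusted p = 0.034). Neither passed without animals 260 and 56. For Myog the difference was 0.53 ± 0.15 (limma adjusted p = 0.0539) and for Ache -0.22 ± 0.07 (limma adjusted p = 0.0891), so neither was shown to follow one subunit more than the other.

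The sample titles end in numbers that form 5 runs separated by gaps of more than 30, of 33, 14, 21, 11 and 13 animals; their meaning is not in the labels. None of the 10 genes differed between these runs by limma's F test (adjusted p from 0.734 to 0.939, and 0 of 10 at an unadjusted p under 0.05), against 0.0149% of all genes that did. The largest difference between run means was 0.35 for Musk, from 3.54 to 3.89, less than its SD of 0.58 over the animals. With the run as a covariate all 12 pairs remained, and 11 of the 12 had the same sign of r in all 5 runs.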

How the data were processed

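Polyadenylated RNA from quadriceps of 92 mice was sequenced after library preparation with the KAPA mRNA HyperPrep kit, per the labels' protocols. The deposited table holds log2 values per gene, read as per-million from their linear sums (median 1006085). The submitters' processing notes name bcl2fastq, MultiQC, kallisto 0.50.1, edgeR and mm10, with no role or order, so the exact scaling and the counting settings are not given in the sources used here. Of 13456 lines, 15 repeats were removed, and 0 value columns were left without a sample.

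Tests across genes used limma 3.58.1 (R 4.3.3) with a trend of variance on mean, and p-values were adjusted by Benjamini-Hochberg across the whole table; the fit was checked on simulated data. A slope is per SD of the predictor. Permutation tests used 100000 resamples and are two-sided. GENCODE M21 gave exon lengths, coordinates, neighbours and overlaps for 13255 genes. SD trends are lowess fits with a span of 0.3. No read depth is known, so precision comes only from the spread over animals, which includes technical spread.

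Named genes are the 10 genes, the 3 genes with the largest absolute r for each among those with a mean of at least 1, up to 4 genes per junction list with the most relations, and neighbours that passed. Other genes named (Runx1, Myh3, Myod1, Cdkn1a, Gadd45a, Pvalb, Atp2a1, Agrn, Gabpa, Gabpb1, Hdac4, Src, Utrn and further list genes) and the animals named were picked after their values were seen. The 10 genes and the lists were chosen with earlier results of these data known. Alternatives were title-number runs, 3 principal components or marker scores as covariates, log2(value + 1), a minimum mean of 1, ranks, removal of extreme animals, another length and other summaries.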

Additional observations from a re-analysis of the deposited data

How the results depend on the processing

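No paired analysis was possible because the labels give 1 group. Of the 12 called pairs, 12 remained with title-number runs, log2(value + 1) or a minimum mean of 1, 11 with ranks, 10 with 3 principal components, 9 without the 2 animals farthest from the predictor's median, and 11 with marker scores, where Chrne and Lrp4 were added. Removing the highest Chrna1 and highest Ache animals left 10, and removing the 5 highest Chrna1 animals, like that removal chosen after seeing the data, left 7. No slope of these pairs reversed under any of these settings.

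With 3 principal components as covariates, 0 genes passed for the fast fibre, adipocyte and denervation scores and 1 each for the endothelial (Chrne) and fibroblast (Chrnd in place of Rapsn) scores, the pairs with other junction genes fell from 67 to 26 and the neighbours from 9 to 4. With marker scores as covariates the junction list pairs fell to 38, of which 34 were the same. With ranks, 0 passed for the endothelial and adipocyte scores. Without the 2 animals farthest from the median of a score, 0 passed for the endothelial, adipocyte and denervation scores and 1 (Musk) for the Schwann cell score. Without the highest Chrna1 and Ache animals, 0 passed for the endothelial and adipocyte scores and 1 (Chrna1) for the denervation score. Without the 5 highest Chrna1 animals, 0 passed for those 3 and 1 (Musk) for the Schwann cell score. The count of listed genes with different slopes on Chrna1 and Chrne fell from 2 to 1 with the runs as covariate and to 0 with principal components, with marker scores and without either set of animals. The causes were not tested.

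Over all genes, the numbers that passed without covariates and with 3 principal components were 657 and 28 for Chrna1, 405 and 21 for Chrnb1, 980 and 41 for Chrnd, 1186 and 353 for Chrne, 1204 and 393 for Musk, 1119 and 0 for Rapsn, 65 and 114 for Ache, 41 and 53 for Colq and 7 and 16 for Dok7; the 293 for Lrp4 changed least of the 10. The first 3 components hold 8.38%, 6.49% and 4.22% of the variance.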

Other observations

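The animals at the top of the Chrna1 range differed in which other genes were high. Animal 43, ranked 2 for Chrna1, also ranked 2 for Musk (4.87) and 2 for Runx1 (4.05), a denervation-responsive transcription factor gene, but 31 for Myh3 and 24 for Ufsp1. In the denervation list it also ranked 10 for Ncam1, 11 for Myod1, 13 for Gadd45a, 15 for Myog and 16 for Cdkn1a. Hdac4 ranked 58 and Myh8 66. Animal 55, ranked 3 for Chrna1 and 2 for Chrne, ranked 2 for Myog (4.27) and Ncam1 (4.48), 1 for Myod1 (4.92) and 73 for Colq (2.81). Of the rest of the denervation list, Gadd45a ranked 2 in it, Runx1 3, Cdkn1a 7, Myh3 12, Myh8 13 and Hdac4 56. The animal that ranked 1 for Chrnb1 and 5 for Chrna1 ranked 2 for Chrnd and Colq and 1 for Gadd45a (6.45), but 46 for Chrne and 72 for Ache. Within the denervation list that animal also ranked 5 for Runx1, 6 for Ncam1, 7 for Myh8 and 12 for Cdkn1a. Myog ranked 30, Myh3 52, Hdac4 53 and Myod1 54. Animal 56 ranked 1 for Chrne, Ache, Colq, Ufsp1 (4.77) and Etv4 (2.52), but 81 for Myog (0.93) and 83 for Myod1 (3.14). Of the other denervation list genes in animal 56, Ncam1 (3.75) ranked 5, and Myh3 (7.79) and Gadd45a (6.02) each ranked 7. Hdac4 ranked 26, Myh8 31, Cdkn1a 60 and Runx1 67. These are values of single animals with no replicate.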
